A study of Mus musculus with 6 samples.

Results

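Aminoacyl-tRNA synthetase genes were followed by RNA-seq. SaOS2, the name on all 6 libraries, is an established line of human osteosarcoma cells. The family was taken by gene symbol: 35 of the 17144 genes in the count tables, 19 coding for enzymes of the cytosol and 16 for enzymes of the mitochondrion. All 35 symbols were listed, and all 35 passed the filter on low counts. The libraries fall into group D, with 3 libraries, and group C, with 3 libraries, by the letters of their titles. No label says what C and D stand for. The series title names the effect of a compound, DDTC(I), on SaOS2 cells, without a dose or a time, so the comparison of D with C is given by letter and neither group is called treated. Library totals were 18446443 to 19802340 counts in D and 18532763 to 20602771 counts in C. The labels do not state that the replicates came from separate cultures, and the p-values therefore reflect the spread among libraries, which may be technical.

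A tRNA synthetase joins an amino acid to its matching tRNA, the step that fixes the genetic code before the ribosome uses the charged tRNA. Human cells run this reaction in the cytosol and again in mitochondria, mostly with enzymes from separate nuclear genes, whose symbols mostly end in 1 for the cytosol and in 2 for the mitochondrion. GARS1 and KARS1 are exceptions, since each makes the enzyme of both places. Several cytosolic enzymes sit in a multi-synthetase complex. Many cytosolic synthetase genes are known targets of ATF4, the transcription factor made when eIF2 is phosphorylated in the integrated stress response, and the mitochondrial genes are not usually listed among them.

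Markers of the line were read before the family was described. ALPL, the alkaline phosphatase for which SaOS2 is known, had 9 to 15 counts in D libraries and 8 to 13 in C libraries. The osteoblast genes SP7, BGLAP and IBSP had at most 2 counts in any library. The other 5 genes of the osteoblast list were detected. SPARC, a matrix glycoprotein, averaged 681 ± 45.2 CPM in D and 1913 ± 162 CPM in C, and the collagen genes COL1A2 and COL1A1 averaged 49.9 ± 2.15 and 4.96 ± 0.585 CPM in D against 176 ± 27.3 and 23.3 ± 0.963 CPM in C (SD, n = 3 each). RUNX2, an osteoblast transcription factor, averaged 9.14 ± 1.97 CPM in D and 19.6 ± 1.73 CPM in C, and SPP1 2.38 ± 0.659 CPM in D and 0.341 ± 0.219 CPM in C. Of the 6 tested genes of this list, 1 (SPP1) was called higher and 4 lower, all 4 at least 2-fold, and the summed level was 707 to 798 CPM in D against 1988 to 2347 CPM in C, nearly all of it SPARC. The values of ALPL, SP7, BGLAP and IBSP go against the SaOS2 label. SPP1 and COL1A1 were low as well, at 2.38 and 4.96 CPM in D and 0.341 and 23.3 CPM in C. The values of SPARC, COL1A2 and RUNX2 do not go against the label, and the cells are therefore named by their label only. Beside these counts, 26.8% of all genes tested were called higher and 27.7% lower, and 10.1% were called at least 2-fold lower. Of 4 tested hematopoietic markers 1 was called higher and 1 lower, of 3 tested endothelial markers 0 and 2, and of 3 tested epithelial markers 2 and 0. Their summed levels were 499 to 549 CPM in D and 533 to 551 CPM in C for the hematopoietic list, nearly all of it CD68. They were 12.1 to 13.97 CPM in D and 18.1 to 23.3 CPM in C for the endothelial list, and 101 to 135 CPM in D and 78.9 to 88.4 CPM in C for the epithelial list. PTPRC had at most 8 counts, EPCAM at most 7 and KDR at most 3 in any library. The part of other cell types in the results was not tested.

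Most cytosolic synthetase genes were higher in D, and mitochondrial ones were split. Of the 19 cytosolic genes, 14 rose, 0 fell and 5 were not called, with a median log2 fold change (D minus C) of 0.74. Of the 16 mitochondrial genes, 6 rose, 7 fell and 3 were not called, with a median of −0.15. In bulk RNA, fewer cells of a type and less RNA per cell cannot be told apart. Calls were made at a Benjamini-Hochberg adjusted p under 0.05 over all 12682 genes tested, with the quasi-likelihood test of edgeR. In that test 26.8% of all genes were called higher and 27.7% lower, and the median log2 fold change of all genes was −0.02. The count of cytosolic genes lower was also 0 at an unadjusted p under 0.05 in edgeR, and 0 in DESeq2 and limma-voom. The share of cytosolic genes called higher was 73.7%, and the shares of mitochondrial genes called were 37.5% higher and 43.8% lower. No p is given for a list as a whole, since its members were chosen with results of these data known.

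**Figure D1:**
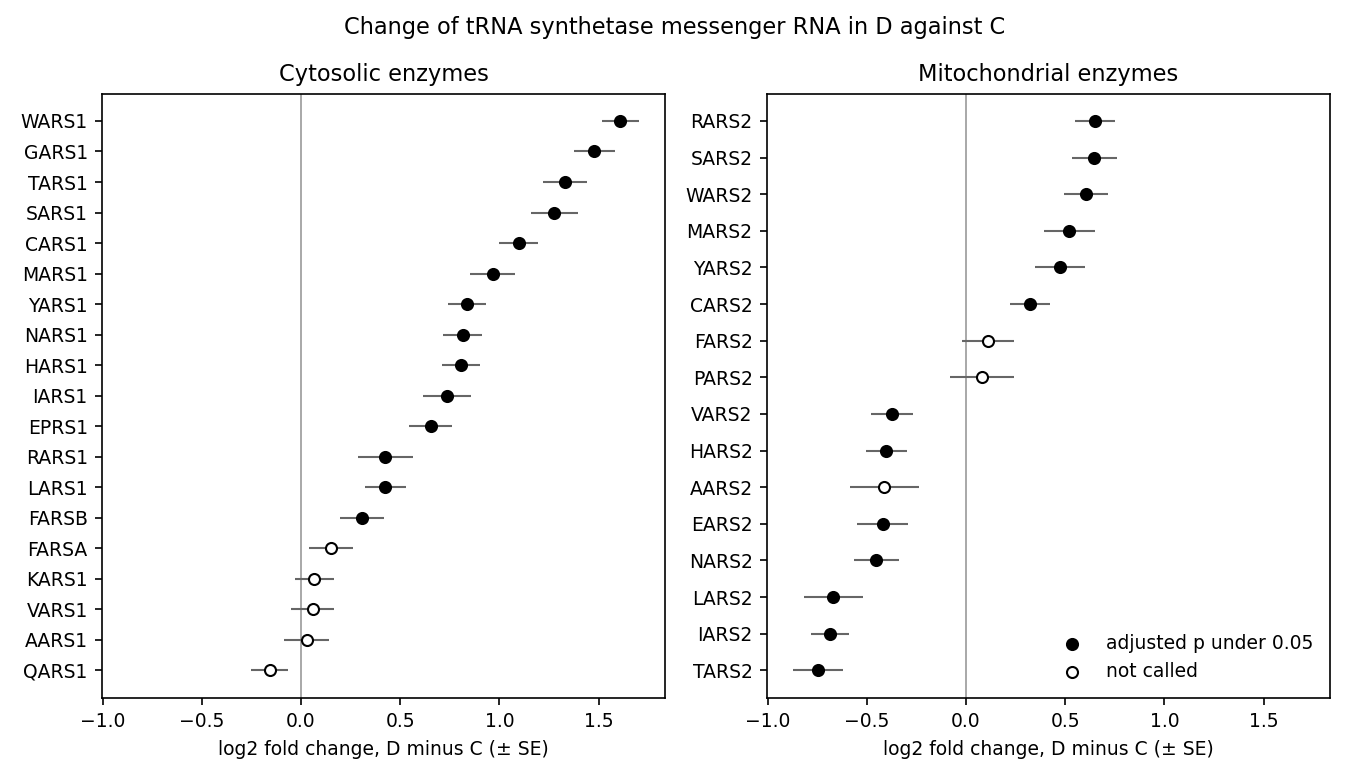
Log2 fold change (D minus C, horizontal axis, bars are SE) of each of the 19 cytosolic and 16 mitochondrial synthetase genes, ordered by size; filled points passed an adjusted p of 0.05 and open points did not. The cytosolic genes run from −0.16 (QARS1) to 1.61 (WARS1) and the mitochondrial genes from −0.75 (TARS2) to 0.65 (RARS2).

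The 5 cytosolic genes that rose at least 2-fold were WARS1, GARS1, TARS1, SARS1 and CARS1. Among all genes tested, 8.37% were called at least 2-fold higher. WARS1, the tryptophanyl enzyme and a gene also known to be induced by interferon, had 663, 663 and 624 normalized CPM (counts divided by the library total after TMM scaling) in D replicates 1 to 3. It had 208, 214 and 217 CPM in C replicates 1 to 3. The D libraries lay close together and far above the C libraries, with a log2 fold change of 1.61 ± 0.10 (SE; adjusted p = 1.0e-05, edgeR).

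GARS1, the glycyl enzyme of both compartments and a gene of inherited neuropathy, had 1136, 1120 and 1238 CPM in D against 408, 442 and 404 CPM in C. Its lowest D library was more than 2-fold above its highest C library, and its log2 fold change was 1.48 ± 0.10 (adjusted p = 1.9e-05, edgeR). TARS1, the threonyl enzyme, had 1111, 1176 and 1301 CPM in D against 446, 500 and 484 CPM in C (1.33 ± 0.11, adjusted p = 4.1e-05, edgeR). Per gene length, GARS1 and TARS1 were the highest synthetase messages of the D libraries.

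SARS1, the seryl enzyme, had 492, 462 and 567 CPM in D against 211, 224 and 194 CPM in C, with D replicate 3 the highest. Its log2 fold change was 1.28 ± 0.12 (adjusted p = 6.4e-05, edgeR). CARS1, the cysteinyl enzyme, had 450, 409 and 451 CPM in D against 203, 213 and 198 CPM in C (1.10 ± 0.10, adjusted p = 5.6e-05, edgeR). In all 5 genes the D libraries lay wholly above the C libraries, as they did for 30.6% of all genes tested.

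A second set of cytosolic genes rose by less than 2-fold. MARS1, which charges methionine for both initiator and elongator tRNA, averaged 629 ± 55.8 CPM in D and 322 ± 23.2 CPM in C (SD, n = 3 each), a log2 fold change of 0.97. YARS1, the tyrosyl enzyme, averaged 711 ± 24.5 CPM in D and 399 ± 14.3 CPM in C (0.83). NARS1, the asparaginyl enzyme, had 420, 436 and 471 CPM in D against 243, 261 and 250 CPM in C (0.81 ± 0.10). The D libraries of each of these genes lay wholly above the C libraries, as they did for 30.6% of all genes tested.

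HARS1, the histidyl enzyme, averaged 103 ± 5.05 CPM in D and 59.2 ± 1.39 CPM in C (0.80, SD, n = 3 each). IARS1, the isoleucyl enzyme, had 627, 729 and 571 CPM in D against 370, 373 and 414 CPM in C (0.74 ± 0.12), with D replicate 2 the highest. EPRS1, a fused enzyme that charges both glutamate and proline, had 316, 380 and 323 CPM in D against 221, 215 and 213 CPM in C (0.65 ± 0.11, adjusted p = 0.0011, edgeR). D replicate 2 was again the highest.

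The smallest called rises were in LARS1, RARS1 and FARSB. LARS1, the leucyl enzyme, averaged 405 ± 34.6 CPM in D and 302 ± 10.9 CPM in C (SD, n = 3 each), a log2 fold change of 0.42 ± 0.10 (SE), and its rise was not called with library size only (0.27) or on the unfiltered scale of log2(FPKM + 1) (0.26). RARS1, the arginyl enzyme, had 183, 172 and 242 CPM in D against 148, 154 and 143 CPM in C. Its D libraries were spread widely, and its log2 fold change was 0.42 ± 0.14 (adjusted p = 0.029, edgeR). The rise of RARS1 was no longer called when C replicate 1 (0.42), C replicate 2 (0.45) or C replicate 3 (0.40) was left out, with library size only (0.27), on the FPKM scales (0.25 to 0.26) or in the fit blocked by replicate (0.41). Leaving out D replicate 3, it was 0.27 and called.

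FARSB codes for the beta subunit of the phenylalanyl enzyme and averaged 127 ± 11 CPM in D and 103 ± 8.60 CPM in C (SD, n = 3 each), a log2 fold change of 0.31 ± 0.11 (SE; adjusted p = 0.043, edgeR). Its call was lost under 11 of 18 alternatives. They were library size only (0.15), the FPKM scales (0.14 to 0.15), upper quartile factors (0.30), no filter on low counts (0.30), the replicate block (0.31), and leaving out D replicate 1 (0.34) or C replicate 1 (0.24), 2 (0.35) or 3 (0.33). With the length trend removed it was 0.57 and called. FARSA, the alpha subunit, had 222, 186 and 219 CPM in D against 175, 193 and 197 CPM in C. The groups of FARSA overlapped, and its log2 fold change of 0.15 ± 0.11 was not called (adjusted p = 0.27, edgeR), while without D replicate 2 it was 0.26 and called (adjusted p = 0.044, edgeR).

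The other cytosolic genes that did not pass the test were AARS1, KARS1, VARS1 and QARS1. AARS1, the alanyl enzyme, averaged 812 ± 90.4 CPM in D and 796 ± 13.5 CPM in C (SD, n = 3 each), a log2 fold change of 0.03 ± 0.11 (SE). Per gene length it was the highest cytosolic synthetase message of the C libraries. KARS1, the lysyl enzyme of both compartments, had 431, 395 and 429 CPM in D against 391, 425 and 382 CPM in C (0.07 ± 0.10), and the groups overlapped. VARS1, the valyl enzyme, averaged 192 ± 12.1 CPM in D and 185 ± 18 CPM in C (0.06 ± 0.11). The signs of AARS1, KARS1, VARS1 and FARSA turned negative with library size only, and none of these 4 values was called.

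QARS1, the glutaminyl enzyme, was the only cytosolic gene whose D libraries lay wholly below the C libraries. This was so for 32.1% of all genes tested. QARS1 had 203, 184 and 201 CPM in D against 226, 219 and 211 CPM in C. Its log2 fold change of −0.16 ± 0.10 was not called (adjusted p = 0.19, edgeR). It was called lower with library size only (−0.31), with each library's trend along gene length removed (−0.22) and on the FPKM scale (−0.31).

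**Figure D2:**
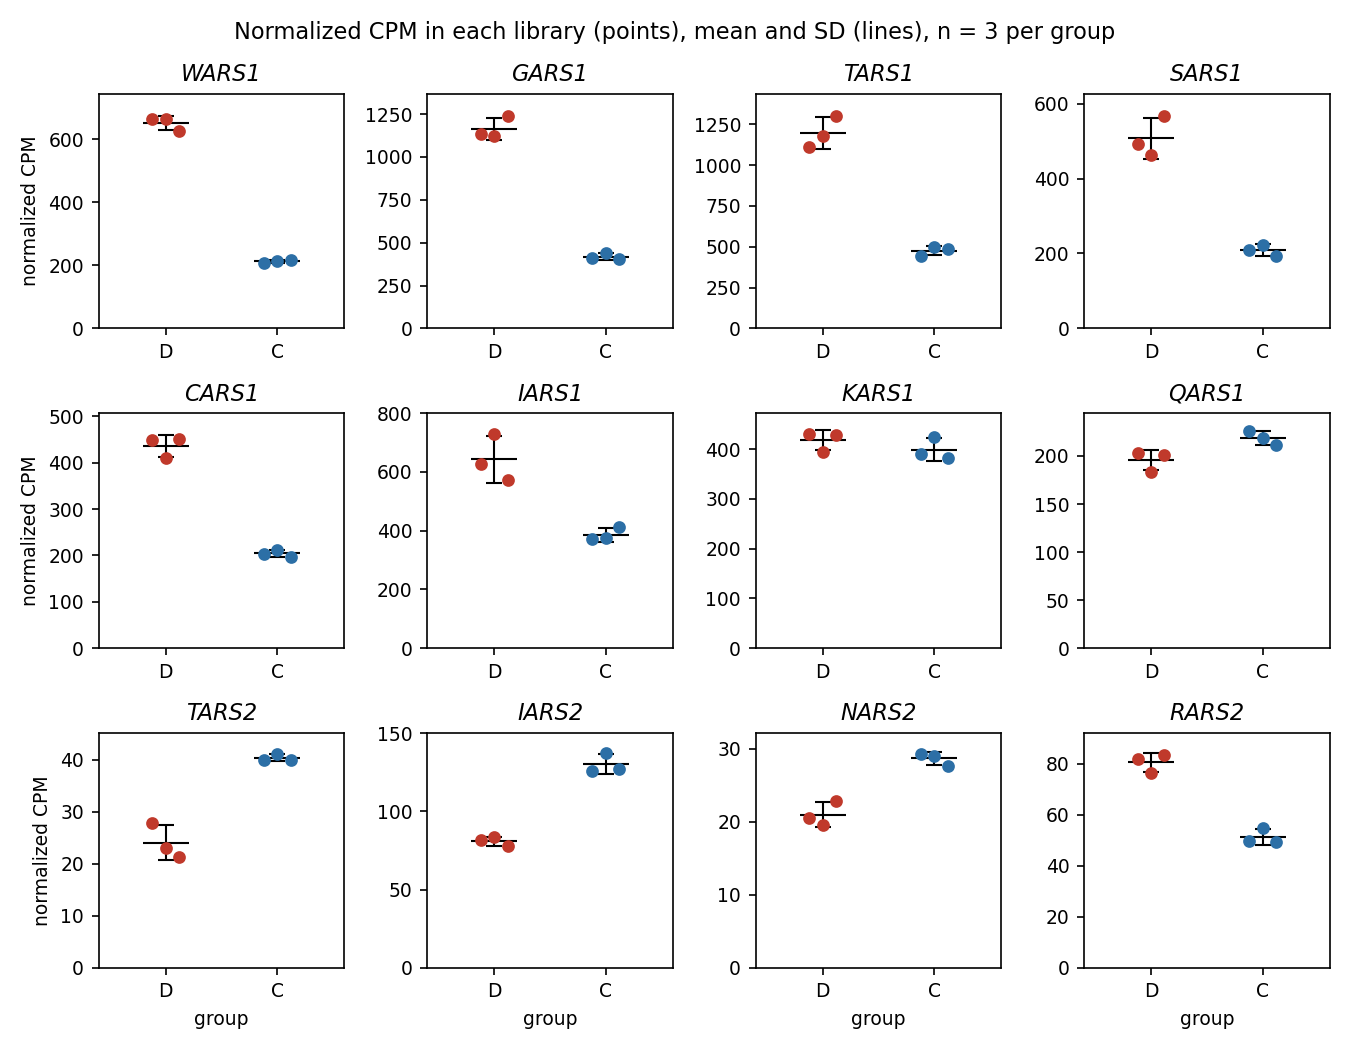
Normalized CPM of 12 synthetase genes in each library (vertical axis from 0), D on the left and C on the right; points are libraries and black lines are the mean and SD (n = 3 per group). The D libraries lie above the C libraries for the first 6 genes shown and RARS2, overlap with C for KARS1, and lie below C for QARS1, TARS2, IARS2 and NARS2.

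Within the cytosolic set the changes differed between enzymes of the multi-synthetase complex and the others by description only. The counts called here stand beside 26.8% of all genes tested called higher and 27.7% lower. Of the 7 members that belong to the complex, 5 rose and 0 fell, with a median log2 fold change of 0.42, from −0.16 in QARS1 to 0.97 in MARS1. Of the 12 cytosolic members outside it, 9 rose and 0 fell, with a median of 0.82, and all 5 genes with a rise of at least 2-fold were among these 12. The division by enzyme fold was flatter: of 9 class I genes, whose catalytic domain has a Rossmann fold, 7 rose (median 0.74), and of 9 class II genes 6 rose (median 0.80), with EPRS1, which has both, left out. Of 12 cytosolic genes often listed as targets of ATF4 or its partner CHOP, in work largely on mouse fibroblasts, 11 rose, AARS1 was the exception, and the median was 0.90. Of the other 7 cytosolic genes 3 rose (42.9%), HARS1, RARS1 and FARSB, and the median was 0.15. The list was chosen with results of these data known, and a part of ATF4 or CHOP in these changes was not tested.

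The mitochondrial enzymes went both ways. None of the 16 was called at least 2-fold higher or lower, while 10.1% of all genes were called at least 2-fold lower. The largest fall was in TARS2, the mitochondrial threonyl enzyme, with 27.9, 23.1 and 21.3 CPM in D against 39.9, 41.2 and 40.0 CPM in C. The C libraries were close together and all above the D libraries, and the log2 fold change was −0.75 ± 0.13 (adjusted p = 0.0014, edgeR). IARS2, the isoleucyl enzyme and per gene length the highest mitochondrial synthetase message of both groups, had 81.4, 83.4 and 77.9 CPM in D against 126, 137 and 127 CPM in C. Its groups were well apart, at −0.69 ± 0.10 (adjusted p = 0.00046, edgeR). Among all genes tested, 32.1% had all D libraries below all C libraries.

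LARS2, a gene of Perrault syndrome, averaged 40.9 ± 7.84 CPM in D and 65.0 ± 3.02 CPM in C (SD, n = 3 each), a log2 fold change of −0.67 ± 0.15 (SE). NARS2, the asparaginyl enzyme, had 20.5, 19.6 and 22.9 CPM in D against 29.4, 29.0 and 27.7 CPM in C (−0.45 ± 0.11, adjusted p = 0.0087, edgeR). The calls of LARS2, NARS2, IARS2 and TARS2 held in every alternative tried.

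The other 3 falls were smaller and less firm. EARS2, the glutamyl enzyme, averaged 53.0 ± 8.08 CPM in D and 70.9 ± 1.30 CPM in C (−0.42). HARS2, the histidyl enzyme and another gene of Perrault syndrome, averaged 25.8 ± 0.484 CPM in D and 34.0 ± 1.71 CPM in C (−0.40). VARS2, the valyl enzyme, averaged 17.6 ± 0.560 CPM in D and 22.8 ± 0.941 CPM in C (−0.37). In all 3 the D libraries lay below the C libraries, as they did for 32.1% of all genes tested.

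The calls of these 3 genes were lost with fewer C libraries, and all 3 were lost in the fit blocked by replicate, with no library removed (−0.43, −0.40 and −0.37 in EARS2, HARS2 and VARS2). The call of EARS2 was lost whichever C library was left out (−0.41, −0.44 and −0.42 without C replicates 1, 2 and 3). Its value moved with the D libraries, at −0.52 without D replicate 1 and −0.29 without D replicate 3, and was called in both. The call of HARS2 was lost without C replicate 2 (−0.38), and that of VARS2 without C replicate 1 (−0.34) or 2 (−0.39). Without C replicate 2, 4 mitochondrial genes were called lower in place of 7. AARS2, the alanyl enzyme, averaged 23.3 ± 5.51 CPM in D and 31.0 ± 0.979 CPM in C, with D replicate 3 lowest at 17.0. Its log2 fold change of −0.41 ± 0.17 was not called (adjusted p = 0.074, edgeR). AARS2 was called lower with library size only (−0.56) and on the filtered FPKM scales.

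Mitochondrial genes that rose were RARS2, SARS2, WARS2, MARS2, YARS2 and CARS2. RARS2, the arginyl enzyme and a gene of pontocerebellar hypoplasia, had 81.6, 76.4 and 83.5 CPM in D against 49.7, 54.7 and 49.3 CPM in C (0.65 ± 0.10, adjusted p = 0.00080, edgeR). SARS2, the seryl enzyme, averaged 40.2 ± 3.68 CPM in D and 25.7 ± 0.436 CPM in C (0.65). WARS2, the tryptophanyl enzyme, averaged 18.54 ± 0.876 CPM in D and 12.2 ± 0.606 CPM in C (0.61). The D libraries of each of these 3 genes lay above the C libraries, as they did for 30.6% of all genes tested. The calls of these 3 genes held in every alternative tried.

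MARS2, the methionyl enzyme, averaged 9.40 ± 0.377 CPM in D and 6.54 ± 0.631 CPM in C (0.52), a call lost on the unfiltered scale of log2(FPKM + 1) (0.27). YARS2, the tyrosyl enzyme, averaged 23.6 ± 2.63 CPM in D and 17.0 ± 1.15 CPM in C (0.47), and its call was lost without D replicate 1 (0.42) or C replicate 1 (0.41), with library size only (0.32) and on the unfiltered scale of log2(FPKM + 1) (0.29). CARS2, the cysteinyl enzyme, averaged 50.7 ± 2.70 CPM in D and 40.5 ± 1.89 CPM in C (0.32). Its call was lost under 9 of 18 alternatives, namely library size only (0.17), the FPKM scales (0.16 to 0.17), the replicate block (0.32), and leaving out D replicate 1 (0.31) or C replicate 1 (0.29), 2 (0.36) or 3 (0.31). FARS2, the single-chain phenylalanyl enzyme, had 31.9, 28.4 and 37.5 CPM in D against 29.6, 32.3 and 28.7 CPM in C, groups that overlapped, and was not called (0.11 ± 0.13). PARS2, the prolyl enzyme, averaged 7.45 ± 1.003 CPM in D and 7.04 ± 1.03 CPM in C and was not called either (0.08 ± 0.16).

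Gene length moved with the change across the whole data set, and this was read for the family. Across all genes tested the median log2 fold change was 0.25 up to 1500 bp, where no member lies, and −0.20 over 6000 bp, where FARSB (0.31) and FARS2 (0.11) lie. The D libraries stood apart along length: the slope of a library's deviation from its group mean on log2 length was 0.17 in D replicate 2, −0.18 in D replicate 3 and 0.01 in D replicate 1, against −0.05 to 0.05 in C. Median lengths implied by the files were 2797 bp for the cytosolic and 3398.5 bp for the mitochondrial genes. Among genes over 1500 and up to 3000 bp, the median log2 fold change was 0.10 for all 3136 genes tested, 0.82 for the 12 cytosolic members there and −0.16 for the 6 mitochondrial members. Among genes over 3000 and up to 6000 bp, it was −0.05 for all 4791 genes, 0.54 for 6 cytosolic members and −0.37 for 9 mitochondrial members. With each library's length trend removed, 14 cytosolic genes were called higher and 1, QARS1, lower, and 6 mitochondrial genes were called higher and 7 lower.

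The median level of the members relative to the mean of C was read in each D library. For the cytosolic genes it was 0.70, 0.78 and 0.71 on the log2 CPM scale in D replicates 1, 2 and 3. Single genes differed more between D libraries, as in AARS1, with 880, 846 and 709 CPM, and RARS1. For the mitochondrial genes it was −0.06, −0.17 and −0.15. The median log2 fold change of the mitochondrial genes was −0.06 without D replicate 2, −0.10 without D replicate 3 and −0.21 without D replicate 1. With library size only, a scaling under which the median of all genes was −0.17, the medians were 0.59 for the cytosolic and −0.30 for the mitochondrial genes. Calls over all genes were 3393 higher and 3509 lower, and 2586 higher and 4449 lower with library size only.

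Pairing each cytosolic enzyme with its mitochondrial counterpart removes the scaling, because both genes are read in the same library. It does not remove the trend along gene length where the 2 genes differ in length, as FARSA (1811 bp) and FARS2 (6626 bp) do. No ratio was computed with that trend removed. There were 17 pairs, with EPRS1 set against both EARS2 and PARS2 and both FARSA and FARSB set against FARS2. The ratio of FPKM values (counts scaled by gene length and library total) was taken on a log2 scale in each library. In 15 of the 17 pairs every D ratio lay above every C ratio, and the median change over the pairs was 0.63. Single genes, read in normalized CPM, had all D libraries above all C libraries in 30.6% of the genes tested and below in 32.1%. No such share was computed for ratios of 2 genes. Each of the 15 pairs had an exact 2-sided permutation p of 0.1, the smallest that 3 against 3 libraries can give, and an adjusted p of 0.11 over the 17 pairs, so no pair could pass the threshold. A ratio shows an unequal change of the 2 genes and not which of them changed.

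The threonyl pair changed most. The log2 ratio of TARS1 to TARS2 was 5.25, 5.60 and 5.87 in D libraries against 3.41, 3.53 and 3.53 in C libraries. This corresponds to TARS1 levels 47.6 times those of TARS2 in D and 11.2 times in C. Here TARS1 rose and TARS2 fell.

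The isoleucyl pair was next. Its log2 ratio of IARS1 to IARS2 was 2.50, 2.68 and 2.43 in D libraries against 1.11, 1.0 and 1.26 in C libraries, a change of 1.42. The asparaginyl pair NARS1 and NARS2 had log2 ratios of 4.30, 4.41 and 4.30 in D libraries against 2.99, 3.11 and 3.11 in C libraries, a change of 1.27. In 6 pairs the cytosolic gene was called higher and the mitochondrial gene lower: those of threonine, isoleucine, asparagine, histidine, leucine and glutamate. The log2 ratio of the histidyl, leucyl and glutamyl pairs changed by 1.20, 1.11 and 1.08. HARS1 and HARS2 are close in sequence and TARS1 has the close relative TARS3, so reads could be divided between such genes in ways the deposited counts do not show.

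In 6 further pairs both genes were called higher, and they included the arginyl pair, which changed the other way. The log2 ratio of RARS1 to RARS2 was 2.08, 2.08 and 2.45 in D libraries against 2.49, 2.40 and 2.45 in C libraries, a change of −0.25 with overlapping groups (exact 2-sided permutation p = 0.2). D replicate 3 was the library that overlapped. The log2 ratio of FARSA to FARS2 was 4.67, 4.58 and 4.42 in D libraries against 4.44, 4.45 and 4.65 in C libraries, a change of 0.04 (exact 2-sided permutation p = 0.8). In the other 5 pairs with both genes higher, those of tryptophan, cysteine, serine, methionine and tyrosine, the log2 ratio changed by 1.0, 0.77, 0.63, 0.44 and 0.36. The log2 ratio of EPRS1 to PARS2 changed by 0.56, that of AARS1 to AARS2 by 0.46, that of VARS1 to VARS2 by 0.43 and that of FARSB to FARS2 by 0.21.

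**Figure D3:**
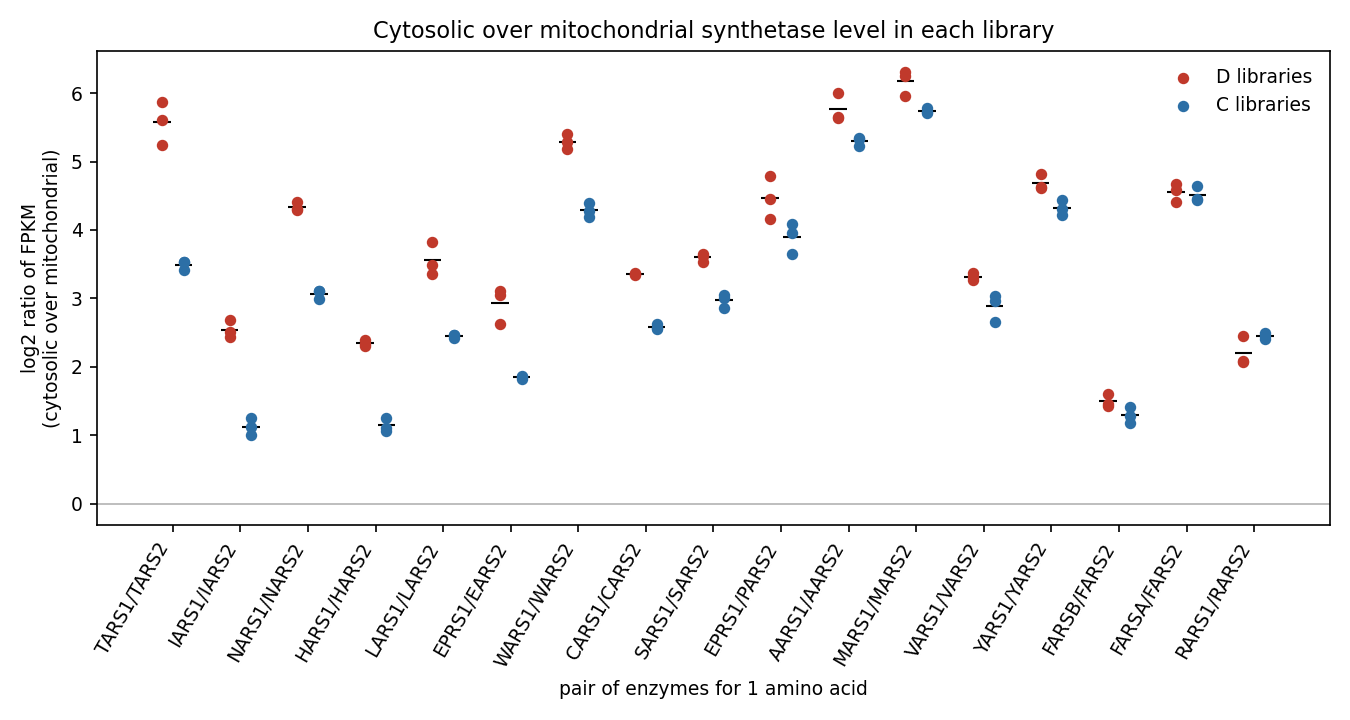
Log2 ratio of the FPKM of a cytosolic synthetase to that of its mitochondrial counterpart (vertical axis) in each D library (left of each pair) and C library (right), with black lines for the group mean; the 17 pairs are ordered by the change from the threonyl pair (2.08) to the arginyl pair (−0.25). The D libraries lie above the C libraries in 15 pairs.

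Per gene length the cytosolic messages stood above the mitochondrial ones in every pair and in both groups. On the deposited FPKM scale, the summed level of the 19 cytosolic genes was 3105, 3084 and 3017 in D libraries against 1921, 2025 and 1970 in C libraries. That of the 16 mitochondrial genes was 157, 148 and 143 in D libraries against 176, 183 and 178 in C libraries. The groups did not overlap for either sum, and the cytosolic sum was 20.6 ± 0.696 times the mitochondrial one in D and 11.01 ± 0.0639 times in C (SD, n = 3 each). GARS1 and KARS1, which serve both compartments, are counted on the cytosolic side only in the sums and shares given here. GARS1 averaged 410 FPKM in D and 164 FPKM in C, and KARS1 174 and 184 FPKM. FPKM has no TMM scaling. The median log2 fold change of all genes was −0.14 and −0.17 on the filtered FPKM scales and −0.02 on the unfiltered one. IARS2 alone averaged 21.8 FPKM in D and 38.8 FPKM in C, while 6 of the 16 mitochondrial genes were called higher. Cytosolic synthetases took 0.890 ± 0.0224% of all counts in D and 0.579 ± 0.0147% in C, and mitochondrial ones 0.0521 ± 0.00295% in D and 0.0646 ± 0.00140% in C.

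The order of levels among the cytosolic genes changed with the group. GARS1 averaged 410 FPKM in D, the highest of the 19, and 164 FPKM in C, the fifth. TARS1 averaged 395 FPKM in D and 175 FPKM in C. AARS1 averaged 224 FPKM in D, the fifth, and 244 FPKM in C, the highest, and KARS1 was the eighth in D at 174 FPKM and the second in C at 184 FPKM. WARS1 averaged 210 FPKM in D, the seventh of the 19, and 76.6 FPKM in C, the twelfth. FARSB was the lowest of the cytosolic genes in both groups, at 13.1 FPKM in D and 11.8 FPKM in C, with an implied length of 9191 bp. GARS1, TARS1, WARS1 and SARS1, chosen here as the 4 with the largest gains, made up 66.5% of the net gain of 1097 in the summed cytosolic FPKM.

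Among the mitochondrial genes IARS2 was highest, at 21.8 FPKM in D and 38.8 FPKM in C. SARS2 and RARS2 followed in D, at 19.7 and 19.1 FPKM, against 14.02 and 13.5 FPKM in C. MARS2 was lowest in both groups, at 2.94 FPKM in D and 2.28 FPKM in C, and its counts, at least 115 in each library, stood well above the floor of 3 counts (0.139 to 0.17 CPM). That floor covers counting error only.

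**Figure D4:**
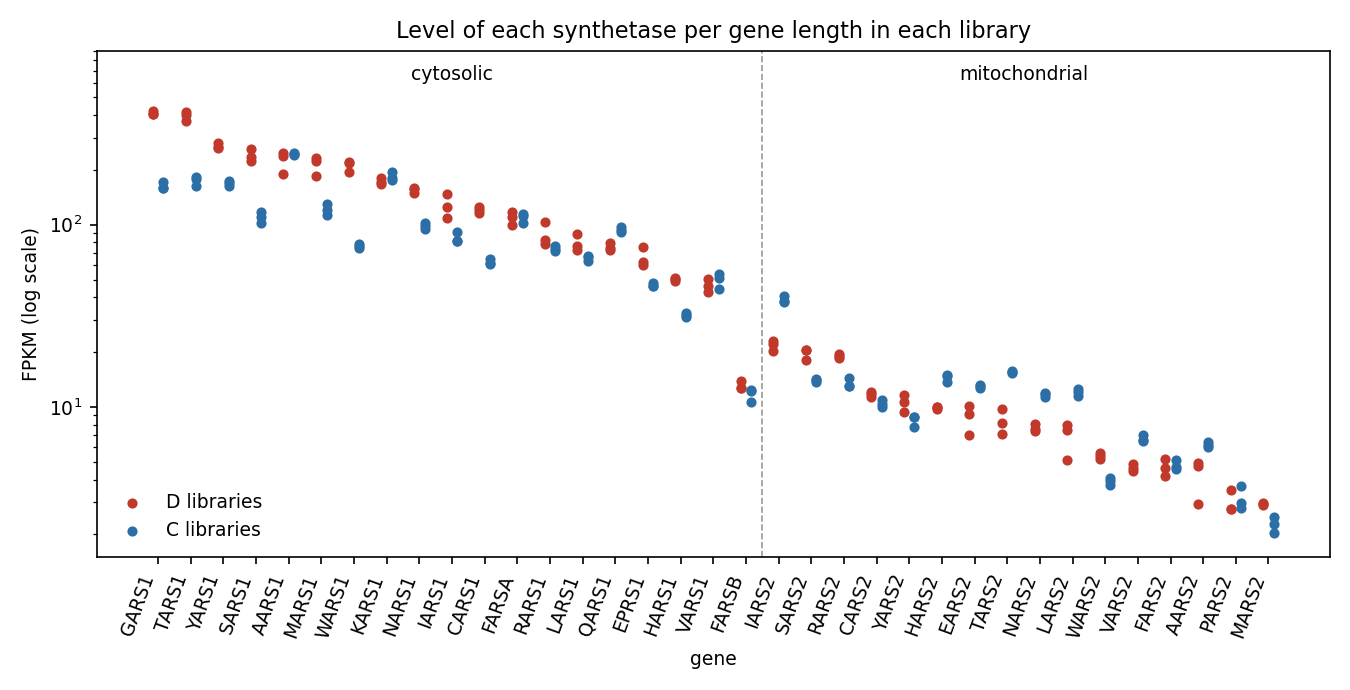
FPKM (log scale) of each synthetase in each D library (left) and C library (right), ordered by the D mean within the 19 cytosolic genes and the 16 mitochondrial genes. Cytosolic genes other than FARSB lie above 30 FPKM and mitochondrial genes below 42 FPKM in all libraries.

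TARS3, which was not among the 35, was read beside them. It codes for a second cytosolic threonyl enzyme and fell to 7.82 ± 1.04 CPM in D, against 12.3 ± 0.388 CPM in C (−0.65 ± 0.13), so the 2 threonyl genes of the cytosol were called in opposite directions.

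The non-enzyme scaffold of the multi-synthetase complex had 2 of 3 genes higher (66.7%), beside 26.8% of all genes tested. AIMP2 averaged 72.7 ± 13.3 CPM in D and 49.2 ± 2.47 CPM in C (0.56) and AIMP1 53.6 ± 10.9 CPM in D and 37.3 ± 3.45 CPM in C (0.52), while EEF1E1 (0.22 ± 0.15) was not called. Mitochondria charge their glutaminyl-tRNA by amidation of glutamyl-tRNA, with a 3-subunit enzyme, in place of a glutaminyl synthetase. Of its subunits GATC (0.57 ± 0.10) and QRSL1 (0.46 ± 0.11) rose and GATB (0.09 ± 0.10) was not called, while EARS2, which makes the glutamyl-tRNA, was lower. MTFMT, which formylates the initiator methionyl-tRNA, was not called (−0.25 ± 0.15).

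Genes between uncharged tRNA and the synthetases also moved. GCN2, the eIF2 kinase that senses uncharged tRNA, is coded by EIF2AK4, which fell to 108 ± 25.1 CPM in D, against 183 ± 11.4 CPM in C (−0.75 ± 0.17, adjusted p = 0.0052, edgeR). Its activator GCN1, a long gene, had 219, 231 and 125 CPM in D against 285, 263 and 326 CPM in C, with D replicate 3 the lowest, and also fell (−0.60 ± 0.21, adjusted p = 0.041, edgeR). The fall of GCN1 was −0.36 and called without D replicate 3, and its call was lost without D replicate 1 (−0.71), without C replicate 1 (−0.62), 2 (−0.67) or 3 (−0.52), and in the blocked fit (−0.64). IMPACT, an inhibitor of GCN2 activation, was not called (0.10 ± 0.13). In the same libraries ATF4 rose to 1207 ± 206 CPM in D, against 509 ± 31.5 CPM in C, and the ATF4 target CHAC1 rose most of the 8 genes on this list, to 186 ± 33.4 CPM in D, against 21.0 ± 2.16 CPM in C (3.15 ± 0.16). Of the 8, 5 rose (62.5%) and 2 fell (25%), beside 26.8% of all genes tested called higher and 27.7% lower. WARS1, the synthetase with the largest change, thus had a smaller log2 fold change than CHAC1, TRIB3 (3.09), ASNS (2.17) and DDIT3 (1.92), and a larger one than ATF4 itself (1.25 ± 0.14). Whether GCN2 or ATF4 had a part in the changes of the synthetase genes was not tested.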

How the data were processed

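Per the labels' protocols, total RNA (1.3 ug per library) was made into libraries with a SMARTER kit for messenger RNA. The authors deposited whole-number counts per gene symbol and FPKM values. The aligner, the counting program and strandedness were not given in the sources used here. The labels name the mouse, and GRCm38 and mm10 are the builds in the submitters' processing notes, but 16 of 17144 symbols matched a mouse symbol in letter case and 0 of the 35 members did. The symbols are human, and no coordinates or sequences were taken from the mouse reference. The deposited FPKM equalled count over library total and a gene length common to all libraries for 17144 of 17144 genes (relative tolerance 0.001). Unless strand was used in counting, reads of overlapping genes cannot be told apart.

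The main test, on counts, was that of edgeR 4.0.16 under R 4.3.3 (filterByExpr, TMM factors, quasi-likelihood F test, 2-sided, group as the only term), on 12682 genes holding 99.952% of counts, with Benjamini-Hochberg adjustment over all of them. The SE is the log2 fold change over the square root of F. DESeq2 1.42.0, limma 3.58.1 and other settings were alternatives. Replicate libraries differed by more than sampling noise (chi-square per degree of freedom 6.21 to 90.5). Same-numbered libraries of D and C did not deviate together. The test was tried on simulated counts. Some genes read beside the members are not reported here. Every member is named; values per library were given for members with a called 2-fold change, the extremes of each compartment, the pairs at both ends of the signed change (3 highest, 2 lowest), and GARS1, KARS1, QARS1 and EPRS1. Members and lists were chosen with earlier results of these data known.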

Additional observations from a re-analysis of the deposited data

How the results depend on the processing

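Of the 27 members called, 18 (11 cytosolic, 7 mitochondrial) were called in the same direction under all 18 alternatives, and 9 lost the call under at least 1. Cytosolic members called higher ranged from 12 to 15 with 1 library left out, mitochondrial members called higher from 4 to 6 and lower from 4 to 7, and cytosolic members called lower stayed at 0. Over all genes, calls with 1 library left out were 2627 to 3888 higher and 2780 to 3879 lower. The medians then ranged from 0.67 to 0.79 (cytosolic) and from −0.21 to −0.064 (mitochondrial), the median change over pairs from 0.57 to 0.72, and the pairs with D above C stayed at 15. With the replicate number as a block, 4 mitochondrial members were called lower and the medians were 0.73 and −0.15. That fit lost CARS2, EARS2, FARSB, HARS2, RARS1 and VARS2. The numbers are not given as a pairing by any label, and the correlations of deviations of same-numbered libraries were 0.0084, −0.40 and −0.36. The cytosolic count called lower was 1 (QARS1) with library size only, with the length trend removed and on all 3 FPKM settings. With library size only the medians were 0.59 and −0.30. On log2(FPKM + 1) they were 0.57 and −0.25 with or without the filter, and on log2(FPKM + 0.1) they were 0.58 and −0.29. Mitochondrial members called higher were 3 on log2(FPKM + 1) without the filter, and genes called higher overall were 2213 and 2209 on the filtered FPKM scales with 1 and 0.1 added. Reversed signs, none of them called, were as follows, with library size only first and then FPKM + 1, FPKM + 0.1 and FPKM + 1 unfiltered. AARS1 had −0.12, −0.13, −0.13 and −0.13, FARSA −0.0036, −0.0051, −0.0052 and −0.0051, and KARS1 −0.086, −0.085, −0.085 and −0.085. VARS1 had −0.093, −0.090, −0.091 and −0.090, FARS2 −0.045, −0.040, −0.048 and −0.040, and PARS2 −0.072, −0.052, −0.067 and −0.052. KARS1 was also at −0.0083 with the length trend removed. With 1 library left out, AARS1 ranged from −0.034 to 0.13, VARS1 from −0.023 to 0.11, PARS2 from −0.033 (−0.0016 without C replicate 1) to 0.20, and the change of the log2 ratio of FARSA to FARS2 from −0.014 to 0.11. The cause of these differences was not tested.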

Other observations

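Genes that make and prepare tRNA were read outside the comparison of synthetases. The counts below stand beside 26.8% of all genes tested called higher and 27.7% lower, and no difference between lists was tested. RNA polymerase III, which transcribes tRNA genes, and its factors had 9 of 20 genes higher (45%) and 3 lower (15%). BRF2, a factor used at type 3 promoters of polymerase III and known as sensitive to oxidative stress, rose to 69.3 ± 8.17 CPM in D, against 16.5 ± 1.65 CPM in C (2.07 ± 0.14, SD of the levels with n = 3 each, SE of the change). BRF1, its counterpart at tRNA genes, was not called (0.24 ± 0.11). The subunit genes POLR3C (1.48 ± 0.11) and POLR3F (1.23 ± 0.14) rose. POLR3G and POLR3GL, which code for alternative forms of a subunit that binds these, both fell (−0.81 ± 0.12 and −0.99 ± 0.19). MAF1, the repressor of polymerase III, was not called (0.01 ± 0.14).

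Of 17 genes of tRNA maturation and export, 8 rose (47.1%) and 2 fell (11.8%), against 26.8% and 27.7% of all genes. XPOT, the exportin for tRNA, rose to 613 ± 65.4 CPM in D, against 337 ± 5.57 CPM in C (0.86 ± 0.11). MTO1 and GTPBP3 act together on a wobble base of mitochondrial tRNA, and they were called in opposite directions. MTO1 averaged 54.7 ± 2.06 CPM in D and 30.4 ± 1.70 CPM in C (0.85 ± 0.10), and GTPBP3 averaged 11.8 ± 0.0939 CPM in D and 20.6 ± 1.23 CPM in C (−0.80 ± 0.11). PRORP, the nuclease subunit of mitochondrial RNase P, fell (−0.53 ± 0.11), while its partner TRMT10C rose (0.71 ± 0.18) and HSD17B10 was not called (0.41 ± 0.18).

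Elongation and editing factors had 7 of 11 tested genes higher (63.6%) and 0 lower, against 26.8% and 27.7% of all genes. The largest rise was in EEF1B2 (1.12 ± 0.15), a subunit of the exchange factor of eEF1A, which carries charged tRNA to the ribosome. That list shares TUFM and TSFM with the list of 10 mitochondrial translation factors, so the rise of TUFM counts in both. Of these 10 factors, 5 rose (50%) and 0 fell. Among those that rose were MTRF1L (0.53 ± 0.11) and TUFM (0.50 ± 0.13). Of the 16 mitochondrial synthetases 6 rose (37.5%) and 7 fell (43.8%), and the difference between these lists was not tested.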
